A study of Mus musculus with 14 samples.

Results

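Common myeloid progenitors (CMP) were compared with hematopoietic stem cells (HSC), both sorted from the bone marrow of wild type C57BL/6 mice and sequenced as bulk RNA. The CMP gate is labelled c-Kit+ FcγRlo CD34- Lin- IL-7R- Sca-1-, and the HSC gate c-Kit+ Sca-1+ Lin-. Each group had 2 samples, out of 14 samples in 7 groups, and the labels do not say whether both came from different mice. The other groups were Ter cells of spleen and of embryonic liver, a spleen control, and the marrow populations MEP (megakaryocyte-erythroid progenitors, labelled c-Kit+ FcγRlo CD34+ Lin- IL-7R- Sca-1-) and CLP (common lymphoid progenitors, labelled c-Kit+ Sca-1+ IL-7R+ Lin-). All were sorted to a stated purity above 98%. No treatment, allele, age or sex is given for the marrow groups, and the HSC gate as labelled uses no CD34, CD150 or Flt3, so it covers stem cells together with multipotent progenitors.

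The deposited values are FPKM (fragments scaled to transcript length and to library size), with 1 mean per group. Of 49583 genes, 13664 had at least 1 FPKM in CMP or HSC. A set of 246 of these was set aside because they were high in the control, HSC and CLP columns and near 0 in the other 4, and 13418 genes were compared. The measure was log2(CMP + 1) minus log2(HSC + 1), called the log2 difference below, which understates the change of low genes. A gene is called higher or lower where this measure reached 2-fold. Dcun1d3 (0.682 FPKM in CMP and 1.0 FPKM in HSC) lay just inside the expression filter and Lrp4 (0.9997 FPKM in CMP and 0.649 FPKM in HSC) just outside it, while Nsa2 (a log2 difference of 1.00 in size) lay just inside the 2-fold limit and Acy3 (0.9999) just outside it.

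No test could be made and no p-value is given, since the HSC value is a single mean without error. The columns also come in 2 number formats, one shared by CMP, MEP and the Ter cells and the other by HSC, CLP and the control, so a difference between CMP and HSC and a difference in how their columns were made cannot be told apart. Beside each gene group it is therefore stated how many members split by number format, meaning that the lowest of one set of columns exceeded the highest of the other. A gene can fail to split only because cell types within a set differ widely, as Hba-a2 did with 8640 FPKM in spleen Ter and 0.680 FPKM in CMP. A low count therefore does not show that a list is free of a format difference. For CMP alone the 2 libraries, here named A and B, could be recovered from the digits of the mean for 8730 of 11243 genes (77.65%), at depths of 14640000 and 13410000 fragments. Of those genes, 2.532% differed by over 2-fold between A and B. In bulk RNA, fewer cells of a type and less RNA per cell cannot be told apart.

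HSC sit at the top of blood formation. They express stem cell factors such as Hlf, Meis1 and the Hoxa genes, and multipotent cells of the same gate begin to express lymphoid genes such as Flt3 and Dntt. CMP are downstream, have lost Sca-1, and give rise to granulocytes, monocytes, erythrocytes and megakaryocytes. Along the granulocyte and monocyte branch, the transcription factors PU.1 (Spi1, of the ETS family) and C/EBPα (Cebpa) drive the genes of the primary granules, which hold myeloperoxidase and the serine proteases neutrophil elastase, proteinase 3 and cathepsin G. The erythroid branch is driven by GATA1 and KLF1.

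Of the gate genes, Kit and Ly6a followed the labels and Cd34 did not. Ly6a, which encodes Sca-1, had 1.70 and 1.11 FPKM in CMP libraries A and B, against a mean of 32.5 FPKM in HSC. Il7r, the IL-7 receptor chain, had 1.10 FPKM in CMP and 30.4 FPKM in HSC, although the HSC gate as labelled does not name it. Kit had 22.9 and 23.0 FPKM in the CMP libraries and 22.3 FPKM in HSC. Both CMP libraries thus lay well below the HSC mean for Ly6a and within 1 FPKM of it for Kit.

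The Fc receptor gene Fcgr3 had 105.1 and 96.7 FPKM in the CMP libraries and 37.8 FPKM in HSC, and its inhibitory relative Fcgr2b had 19.5 and 18.4 FPKM in CMP and 14.7 FPKM in HSC. Cd34 went against the labels. Cd34 RNA stood at 29.3 and 30.1 FPKM in the CMP libraries, which are labelled CD34-, against 44.4 FPKM in HSC, while MEP, which are labelled CD34+, had 0.0694 FPKM and CLP had 15.9 FPKM. In the usual scheme CMP are CD34+ and MEP CD34-, so the order of Cd34 RNA in these 2 columns follows that scheme and the 2 labels do not. The MEP column, however, held 189300 FPKM summed over the neutrophil genes listed below, against 3368 FPKM in CMP. Early erythroid genes summed to 102.2 FPKM in MEP and 193.4 FPKM in CMP, and megakaryocyte genes to 246.3 and 109.8 FPKM. Whether the low Cd34 RNA of this column is that of MEP was not tested.

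**Figure D1:**
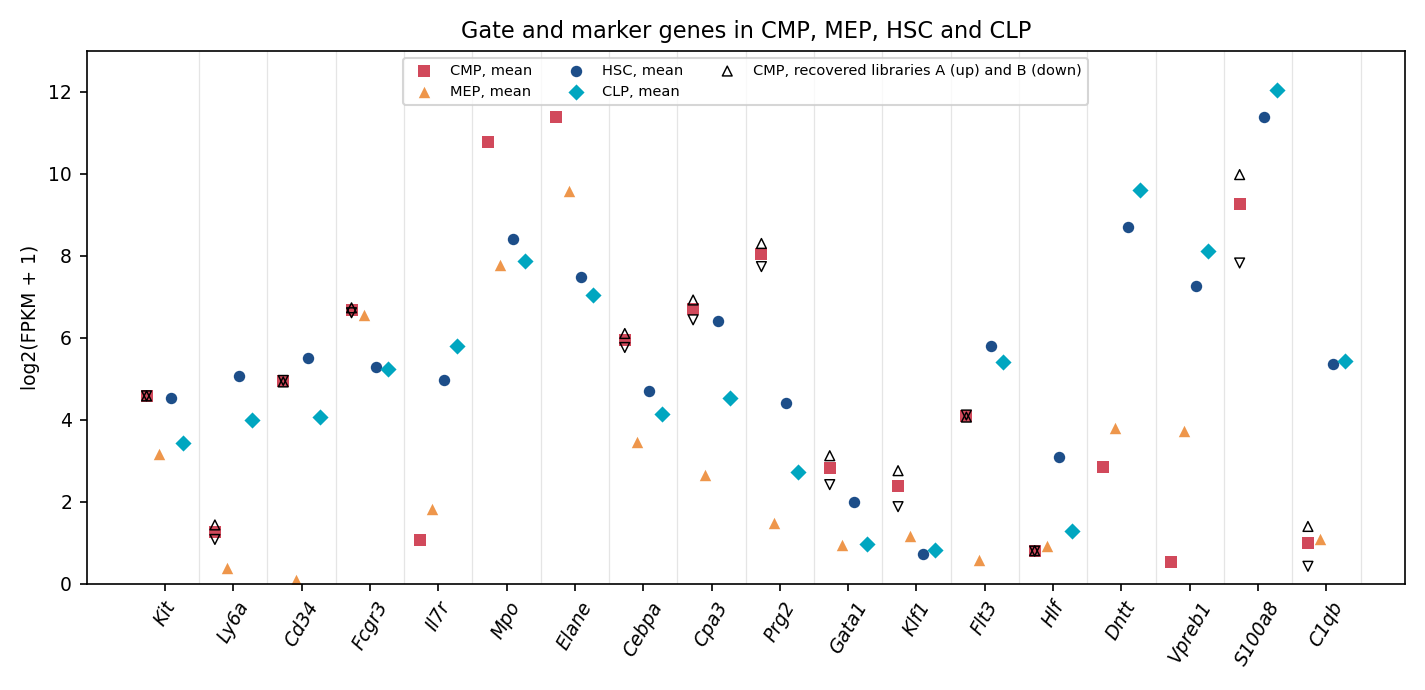
Levels of 18 gate and marker genes in CMP, MEP, HSC and CLP, as log2(FPKM + 1) of each group's mean. Open triangles mark the recovered CMP libraries, where they could be had. Ly6a, Il7r, Dntt and Vpreb1 lie lower in CMP than in HSC, Mpo, Elane and Prg2 lie higher, and Cd34 is near 0 in MEP only.

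CMP and HSC also differed in sex-linked genes. Xist, expressed from the inactive X chromosome, was at 0 in both CMP libraries and in the CMP mean, against 54.3 FPKM in HSC. The Y-linked genes Ddx3y, Eif2s3y, Kdm5d and Uty had 13.4, 7.63, 2.20 and 1.37 FPKM in CMP. The first 3 were listed at 0 in HSC and Uty had 0.0105 FPKM there. The sex of the animals and the cell population therefore cannot be told apart in any CMP to HSC difference. These 5 genes, and Igkc below, were chosen after their values were seen, except Ddx3y, which the rule for the largest differences also named.

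Of the 13418 genes, 772 (5.75%) were higher in CMP and 2571 (19.2%) were lower. The counts of every gene list below are to be read beside these shares. Among the 10804 protein-coding genes, 511 (4.73%) were higher and 1276 (11.8%) lower. The lower genes included 793 processed pseudogenes and 134 immunoglobulin V genes, and 1535 of the 2571 (59.7%) split by number format, as did 534 of the 1276 protein-coding ones (41.8%). Of the 772 higher genes, 78 (10.1%) did. For comparison, HSC, CLP and the control all exceeded the other 4 columns for 2766 (20.6%) of all compared genes. Higher genes made up 23.1% of those called and 43.2% after quantile normalization. The median log2 difference was -0.10 over all compared genes. Quantile normalization moved it by 0.27 and rescaling to the protein-coding total by 0.15.

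**Figure D2:**
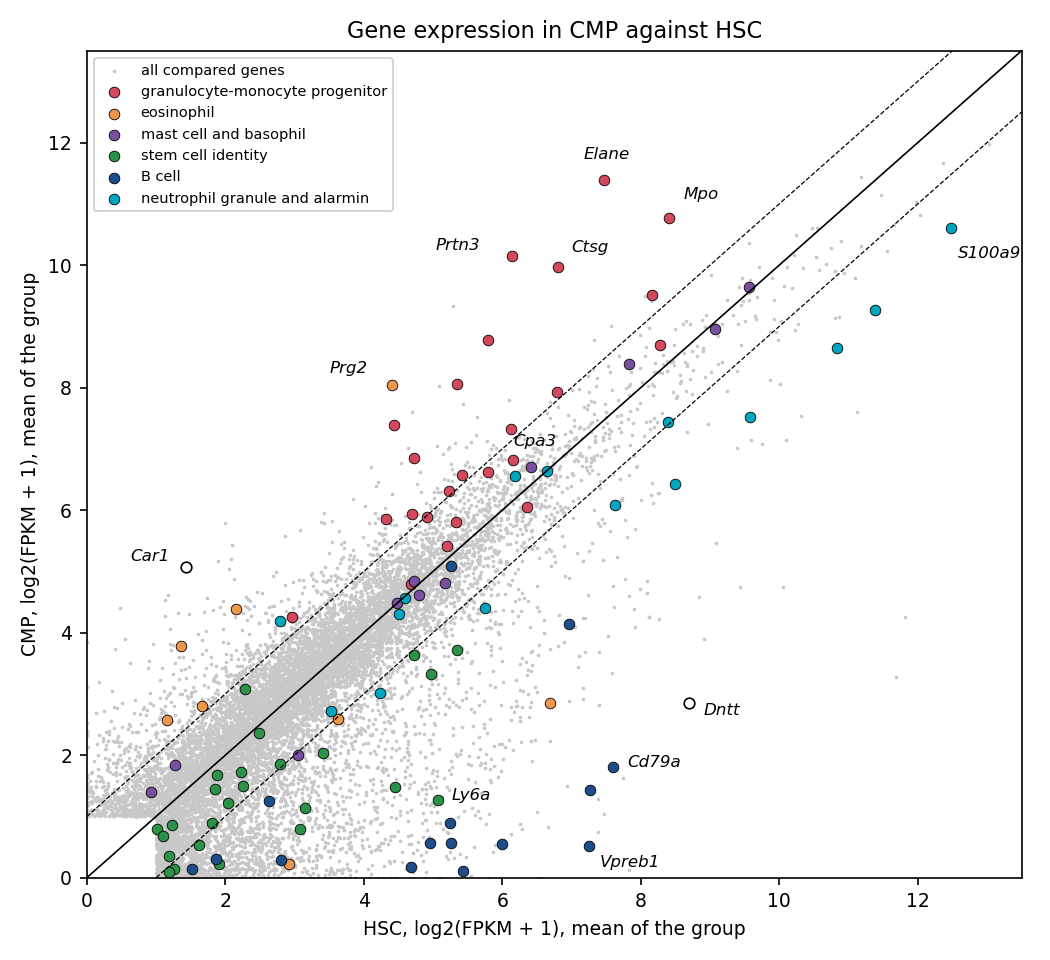
CMP against HSC for the 13418 compared genes, as log2(FPKM + 1) of the group means. The solid line marks equal levels and the dashed lines 2-fold, and members of 6 gene lists are coloured. Of 24 granulocyte-monocyte genes, 16 lie above the upper dashed line, led by Prtn3 and Elane, and 14 of 15 B cell genes lie below the lower one, led by Vpreb1.

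Promoters are shown for the 3 granule proteases with the largest differences and for Vpreb1, which had the largest difference in the other direction once mitochondrial, ribosomal protein and histone genes, antigen receptor segments and unnamed gene models are passed over. Each is the 150 bases before the RefSeq gene start on GRCm38.p6, 5′ to 3′ on the gene's own strand, with capitals for the ETS core AGGAAG or its reverse complement CTTCCT. Prtn3 is chr10:79879517-79879666, Elane chr10:79886162-79886311 (both plus strand), Ctsg chr14:56102575-56102724 and Vpreb1 chr16:16869256-16869405 (both minus strand). The GENCODE gene coordinates given below start elsewhere for all but Ctsg. By them the Prtn3 and Vpreb1 windows lie inside the gene, and the Elane window overlaps its start.
Prtn3: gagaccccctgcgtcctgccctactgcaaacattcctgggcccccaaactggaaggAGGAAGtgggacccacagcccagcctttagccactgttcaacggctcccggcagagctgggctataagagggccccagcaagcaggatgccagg
Elane: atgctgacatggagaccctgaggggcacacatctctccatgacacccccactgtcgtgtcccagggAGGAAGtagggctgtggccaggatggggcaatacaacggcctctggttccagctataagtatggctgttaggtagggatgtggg
Ctsg: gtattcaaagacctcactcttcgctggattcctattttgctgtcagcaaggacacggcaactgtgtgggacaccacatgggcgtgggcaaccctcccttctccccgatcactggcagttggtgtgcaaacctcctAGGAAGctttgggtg
Vpreb1: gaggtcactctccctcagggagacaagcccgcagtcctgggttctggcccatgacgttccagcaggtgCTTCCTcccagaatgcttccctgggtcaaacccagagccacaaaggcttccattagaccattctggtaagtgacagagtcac

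Each of these 4 windows held 1 match to the ETS core and none to the GATA motif or to the CACCC box, searched on both strands. The letters searched for the GATA motif were an A or a T before GATAA or before GATAG. Those of the CACCC box were CACACCC. Among protein-coding genes with a promoter in the table, the ETS core was found in 74 of 408 genes higher in CMP (18.1%), in 248 of 919 lower in CMP (26.99%) and in 1652 of 8624 compared (19.2%). A GATA motif was found in 12.7% of the higher genes, 10.7% of the lower genes and 8.53% of those compared, and the CACCC box in 5.39%, 5.98% and 4.63%. The motif shared by the 3 protease promoters was thus no more frequent among genes higher in CMP than among all compared genes. These are descriptions of letters in a window and say nothing about binding.

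Granulocyte-monocyte progenitor genes were the group with the most higher members. Of 24 measured, 16 were higher in CMP and 0 lower, against 5.75% and 19.2% of all compared genes, with a median log2 difference of 1.22, and 0 split by number format. Over the 11 that were recovered in the libraries the median was 1.24 in A and 1.06 in B. The summed level of the list was 9852 FPKM in CMP and 2074 FPKM in HSC.

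The primary granule proteins led. Gene coordinates are those of GENCODE M21 on GRCm38. Prtn3, proteinase 3 (chr10:79874476-79883174), had 1131 FPKM in CMP and 69.5 FPKM in HSC, a 16.1-fold difference on the log2(FPKM + 1) scale. Its neighbour Elane, neutrophil elastase (chr10:79886247-79888215), had 2673 FPKM in CMP and 177.1 FPKM in HSC, a 15.01-fold difference. Ctsg, cathepsin G (chr14:56099881-56102574), had 1001 FPKM in CMP and 110.5 FPKM in HSC. Mpo, myeloperoxidase, had 1753 FPKM in CMP and 340.0 FPKM in HSC, 2.36 on the log2 scale, so that it was already the most abundant of the 4 in HSC. In MEP these 4 genes had 272.1, 761.7, 83.1 and 218.8 FPKM, all below CMP.

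Other markers of the granulocyte-monocyte branch were higher too. Ms4a3, a membrane protein of granulocyte-monocyte progenitors, had 159.6 and 172.4 FPKM in the CMP libraries and 20.7 FPKM in HSC, so both libraries lay well above the HSC mean. Ly6c2, which encodes part of the Ly6C antigen, had 440.1 FPKM in CMP and 54.8 FPKM in HSC. Gstm1, a glutathione transferase, had 267 FPKM in CMP and 39.5 FPKM in HSC. Calr, a chaperone of the endoplasmic reticulum that helps Mpo to fold, had 727 FPKM in CMP and 285 FPKM in HSC.

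Among the regulators, Cebpa had 67.7 and 53.3 FPKM in the CMP libraries and 24.96 FPKM in HSC. Spi1, encoding PU.1, had 83.9 and 72.6 FPKM in CMP and 36.4 FPKM in HSC; its log2 difference of 1.18 in library A compares with 0.97, under 2-fold, in library B. Gfi1, a repressor needed for granulocytes, had 18.1 FPKM in CMP and 6.79 FPKM in HSC. Irf8, which favours monocytes and dendritic cells, had 93.7 and 102.0 FPKM in CMP and 54.7 FPKM in HSC, under 2-fold. Cebpe, which drives the later secondary granules, had 26.9 FPKM in CMP and 24.8 FPKM in HSC.

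Csf2ra, the GM-CSF receptor chain, had 114.1 FPKM in CMP and 25.5 FPKM in HSC, the largest difference among receptors higher in CMP. Csf3r, the G-CSF receptor, had 71.3 and 45.4 FPKM in the CMP libraries and 29.2 FPKM in HSC, over 2-fold in library A alone. Csf1r, the M-CSF receptor, had 65.5 FPKM in CMP and 80.8 FPKM in HSC. Of the 19 receptors measured, 2 were higher (Csf2ra, and the shared cytokine chain Il6st with 12.4 and 17.7 FPKM in the CMP libraries against 6.98 FPKM in HSC) and 5 were lower, with 1 split by number format. The lower receptors included Il7r, Flt3, Tgfbr2 and Csf2rb2.

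The monocyte and dendritic cell list was mixed. Of 20 measured, 2 were higher and 11 lower. The higher genes were F13a1, coagulation factor XIII A of monocytes, with 260.4 FPKM in CMP and 33.0 FPKM in HSC, and Cd14, the lipopolysaccharide co-receptor, with 17.0 FPKM in CMP and 4.59 FPKM in HSC. The lower genes included those of dendritic cells and of macrophages. Siglech, of plasmacytoid dendritic cells, had 2.83 FPKM in CMP and 7.18 FPKM in HSC, and Itgax, which encodes CD11c, 3.22 FPKM in CMP and 12.7 FPKM in HSC. These were the 2 members of the list that split by number format. The 3 complement C1q chains of macrophages, C1qa, C1qb and C1qc, had 0.962, 0.988 and 0.500 FPKM in CMP, against 50.3, 40.2 and 26.5 FPKM in HSC. Adgre1, which encodes F4/80, had 4.79 FPKM in CMP and 23.2 FPKM in HSC, and Vcam1, an adhesion molecule also of marrow macrophages, 3.34 FPKM in CMP and 20.2 FPKM in HSC. All 3 C1q chains were likewise near 1 FPKM or below in MEP (0.566 to 1.19 FPKM) and above 40 FPKM in CLP.

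The eosinophil list had 8 measured genes, of which 5 were higher and 3 lower, with 0 split by number format. Prg2, the major basic protein of eosinophil granules (chr2:84980461-84983632), had 314 and 212.1 FPKM in the CMP libraries and 20.2 FPKM in HSC, against 1.81 FPKM in MEP. Prg3, its homolog, had 14.7 and 11.0 FPKM in CMP and 1.58 FPKM in HSC. Epx, eosinophil peroxidase, had 24.0 and 15.8 FPKM in CMP and 3.45 FPKM in HSC. Both CMP libraries exceeded the HSC mean by over 2-fold for each of these 3 granule genes.

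Other members of the list went both ways. The ribonuclease genes Ear1 and Ear6 were higher, with 6.01 and 4.98 FPKM in CMP, and 2.18 and 1.23 FPKM in HSC, but both were under 2-fold in library B. Ccr3, the eotaxin receptor, had 0.251 and 0.0911 FPKM in the CMP libraries and 6.56 FPKM in HSC, and Ear2, a paralog of Ear1 and Ear6 with which it may share reads, had 7.70 and 4.77 FPKM in CMP and 102.7 FPKM in HSC. Il5ra, the IL-5 receptor chain, was low in both groups, at 0.191 and 0.229 FPKM in CMP and 0.208 FPKM in HSC. Library A was above library B for all 8 measured members, with list medians of 1.75 in A and 0.55 in B.

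Mast cell and basophil genes were at similar levels in the 2 groups. Of 11 measured, 0 were higher and 1 was lower, with a median log2 difference of 0.08, and 0 split by number format; its median stood at 0.25 for A and -0.16 for B. Cpa3, mast cell carboxypeptidase, had 120.1 and 85.7 FPKM in the CMP libraries and 84.5 FPKM in HSC. The basophil proteases Mcpt8 and Prss34 had 495 and 801 FPKM in CMP, and 539 and 756 FPKM in HSC. Gata2, which is needed for both lineages and for stem cells, had 32.9 and 22.3 FPKM in CMP and 25.4 FPKM in HSC. The single lower gene was Cd200r3, with 3.02 FPKM in CMP and 7.28 FPKM in HSC. The summed list had 1840 FPKM in CMP and 1724 FPKM in HSC, against 298.4 FPKM in MEP and 430.6 FPKM in CLP.

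Early erythroid genes were divided, 6 of 16 measured being higher and 3 lower. Car1, carbonic anhydrase 1 of erythroid progenitors (chr3:14766216-14808368), had 40.9 and 24.6 FPKM in the CMP libraries and 1.70 FPKM in HSC. Aqp1, a water channel of red cells, had 18.2 and 9.42 FPKM in CMP and 2.16 FPKM in HSC. Samd14, Atp1b2, Ermap and Kel, the last 2 of them red cell blood group antigens, were below 1 FPKM in HSC and had 5.36, 2.77, 2.15 and 2.68 FPKM in CMP. All 4 genes that split by number format, Car1, Atp1b2, Ermap and Kel, were among the 6 higher ones. Library A exceeded library B for 13 of the 16 genes.

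Car2, the second carbonic anhydrase of the list, had 19.4 and 12.4 FPKM in the CMP libraries and 53.5 FPKM in HSC, so Car1 and Car2 differed in opposite directions. Cnrip1 and Aqp9 were also lower. Tfrc, the transferrin receptor, had 27.7 and 28.4 FPKM in CMP and 24.0 FPKM in HSC.

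Of 18 erythroid transcription factors, 2 were higher and 2 lower, with 4 split by number format and a median of -0.20. Klf1 had 5.76 and 2.68 FPKM in the CMP libraries and 0.666 FPKM in HSC. Nfe2 had 40.0 and 35.3 FPKM in CMP and 17.5 FPKM in HSC, just under 2-fold in library B. Both split by number format. Gata1 had 7.71 and 4.34 FPKM in CMP and 3.0 FPKM in HSC, a log2 difference of 1.12 for A and 0.42 for B. Epor, the erythropoietin receptor, had 2.58 and 1.61 FPKM in CMP and 0.682 FPKM in HSC. The CMP libraries were both above the HSC mean for these 4 genes. The lower factors were Bcl11a, a repressor of fetal globin, and Klf3.

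Heme synthesis and iron genes included 2 higher and 3 lower of 17 measured, with 5 split by number format. Of all compared genes, 5.75% were higher and 19.2% lower. Alas1, the general first enzyme of heme synthesis, had 55.5 FPKM in CMP and 10.7 FPKM in HSC. Alas2, its erythroid form, had 0.228 and 0.124 FPKM in the CMP libraries and 1.502 FPKM in HSC. Hmox1, which breaks heme down and is high in macrophages, had 5.58 and 2.21 FPKM in CMP and 49.8 FPKM in HSC.

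All 4 measured globin genes were lower in CMP. Hba-a2 (chr11:32296489-32297298) had 1.02 and 0.335 FPKM in the CMP libraries and 166.5 FPKM in HSC, and Hba-a1 2.52 and 0.367 FPKM in CMP and 166.3 FPKM in HSC; the 2 genes have near-identical sequences, so reads can be divided between them arbitrarily. Hbb-bt had 0.778 and 0.106 FPKM in CMP and 58.6 FPKM in HSC. The summed globin level was 6.28 FPKM in CMP and 494 FPKM in HSC, against 8.87 FPKM in MEP and 1249 FPKM in CLP. None of the 4 split by number format.

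Of 16 megakaryocyte and platelet genes, 1 was higher and 3 lower, with 1 split by number format. These counts were near the shares of all compared genes (5.75% higher and 19.2% lower). Pf4, platelet factor 4, had 9.19 and 12.5 FPKM in the CMP libraries and 3.84 FPKM in HSC. Itga2b, which encodes CD41, had 20.1 and 17.4 FPKM in CMP and 10.9 FPKM in HSC, under 2-fold. Mmrn1 and Plek were among the lower members. In MEP, Pf4 had 0.147 FPKM, Itga2b 2.01 FPKM and Gata1 0.928 FPKM, all below CMP. Other genes were above CMP there, among them Nfe2 with 59.9 FPKM, and the summed megakaryocyte list had 109.8 FPKM in CMP and 187.4 FPKM in HSC, against 246.3 FPKM in MEP.

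Stem cell genes were lower or similar in CMP. Of 25 measured, 0 were higher and 12 lower, where 19.2% of all compared genes were lower, with a median log2 difference of -0.93, and 0 split by number format. Ly6a, a gene of the gate, had the largest difference. Hlf, a stem cell transcription factor, had 0.747 and 0.737 FPKM in the CMP libraries and 7.45 FPKM in HSC. Procr, which encodes the stem cell surface protein EPCR, had 0.303 and 0.587 FPKM in CMP and 2.09 FPKM in HSC, and Fgd5, a stem cell marker gene, 0.0652 and 0.0711 FPKM in CMP and 1.28 FPKM in HSC. Mecom, which encodes EVI1, was below 1 FPKM in both groups, with 0.0550 and 0.102 FPKM in CMP and 0.974 FPKM in HSC, and so was not compared.

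Erg, an ETS factor of stem cells, had 11.5 and 12.7 FPKM in the CMP libraries and 39.8 FPKM in HSC. Angpt1, angiopoietin 1, had 8.98 FPKM in CMP and 30.4 FPKM in HSC. Of the Hox genes, Hoxa7 had 3.23 and 3.01 FPKM in CMP and 9.66 FPKM in HSC, Hoxa9 2.88 and 2.38 FPKM in CMP and 5.91 FPKM in HSC, and Hoxa10 0.108 FPKM in CMP and 1.41 FPKM in HSC. Meis1, the partner of Hoxa9, had 1.97 and 1.66 FPKM in CMP and 3.79 FPKM in HSC. Hoxa9 and Meis1 were thus lower than the HSC mean in both libraries by less than 2-fold on the log2(FPKM + 1) scale, except Hoxa9 in library B (log2 difference of -1.03). The libraries hardly differed over this list, with medians of -0.90 in A and -0.93 in B over 22 genes.

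Genes of multipotent progenitors and lymphoid priming were lower, 12 of 20 with 0 higher, a median of -1.51 and 2 split by number format. Flt3, the receptor that marks multipotent progenitors, had 15.7 and 16.3 FPKM in the CMP libraries and 55.0 FPKM in HSC. Dntt, terminal transferase of early lymphoid cells (chr19:41029275-41059525), had 6.25 FPKM in CMP and 416.2 FPKM in HSC. The recombinase genes Rag1 and Rag2 had 0.312 and 0.114 FPKM in CMP, and 40.8 and 8.93 FPKM in HSC. Satb1, a chromatin organizer of lymphoid progenitors, had 2.98 and 3.06 FPKM in the CMP libraries and 8.93 FPKM in HSC. Between HSC and CLP the median of this list differed by only -0.003 (HSC minus CLP).

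**Figure D3:**
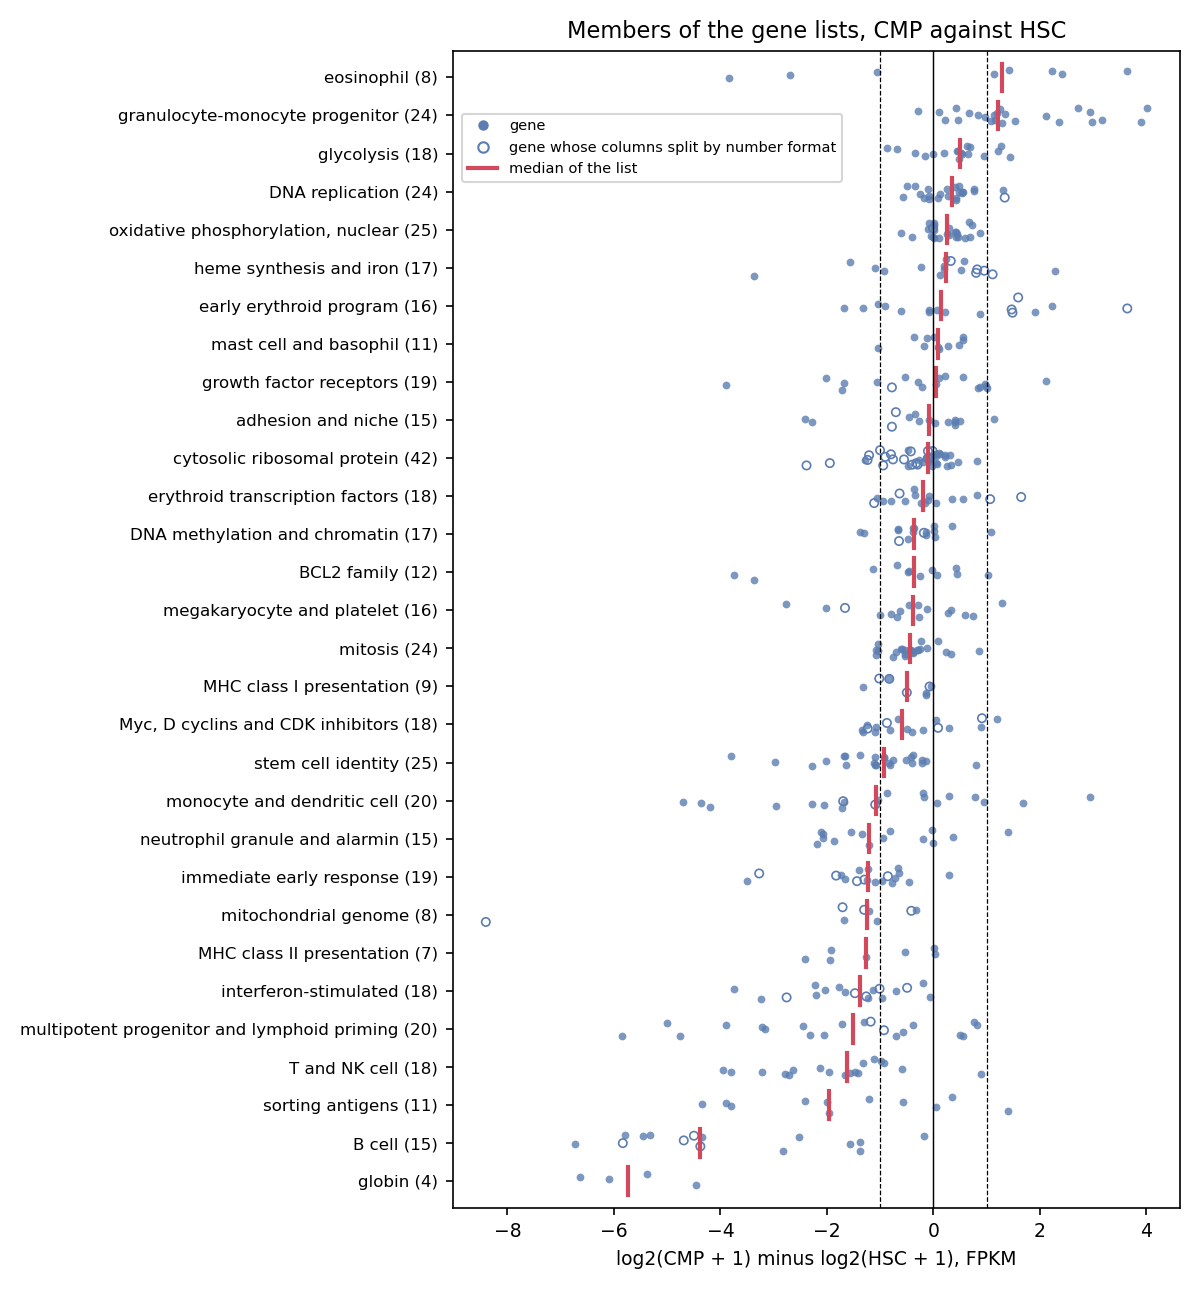
The log2 difference between CMP and HSC for every measured member of the 30 gene lists, sorted by list median (red bar), with the number measured in brackets. Open circles are genes whose columns split by number format, and dashed lines mark 2-fold. The eosinophil and granulocyte-monocyte medians lie above 1, and the B cell and globin medians lie below -4.

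B cell genes were lower in CMP by the widest margin of any list except globin. Of 15 measured, 14 were lower and 0 higher, the median was -4.38, and 4 split by number format. Vpreb1, a surrogate light chain of pre-B cells (chr16:16868403-16870843), had 0.435 FPKM in CMP and 152.0 FPKM in HSC, against 12.2 FPKM in MEP and 277.8 FPKM in CLP. Its partner Igll1 had 0.695 and 0.241 FPKM in the CMP libraries and 63.1 FPKM in HSC. Cd79a, part of the B cell receptor, had 4.55 and 0.461 FPKM in CMP and 193.7 FPKM in HSC.

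The B lineage factors Pax5 and Ebf1 had 0.488 and 0.134 FPKM in CMP, and 29.9 and 24.6 FPKM in HSC, and both split by number format. The immunoglobulin constant gene Igkc had 49.2 and 2.52 FPKM in the CMP libraries and 1058 FPKM in HSC, and immunoglobulin genes held 0.138% of all FPKM in CMP and 0.923% in HSC. The HSC column thus contained B lineage transcripts although its gate is labelled Lin-. The summed B cell list had 58.9 FPKM in CMP and 910.9 FPKM in HSC, against 143.2 FPKM in MEP and 1552 FPKM in CLP. Library A exceeded library B for 12 of 13 recovered members, and both lay below the HSC mean at the median (-3.87 and -4.66).

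T and NK cell genes were also lower, 14 of 18 with 0 higher, a median of -1.62 and 0 split by number format. Ccl5, a chemokine of T and NK cells, had 1.42 and 0.311 FPKM in the CMP libraries and 27.8 FPKM in HSC. Lck, the T cell kinase, had 1.31 and 0.636 FPKM in CMP and 17.3 FPKM in HSC, and Ncr1, which encodes the NK receptor NKp46, 0.266 and 0 FPKM in CMP and 6.07 FPKM in HSC. The summed list had 21.8 FPKM in CMP and 129.3 FPKM in HSC, and 22 of its 25 genes were below 1 FPKM in CMP, against 7 in HSC. The part of mature lymphoid cells in the lower genes of CMP was not tested.

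Neutrophil genes showed the widest spread between the 2 CMP libraries. Of 15 genes measured, 1 was higher and 8 were lower, with a median of -1.21 and 0 split by number format. S100a8, an alarmin of neutrophils, had 1008 and 225.5 FPKM in libraries A and B and 2657 FPKM in HSC. Ltf, lactoferrin of the secondary granules, had 147.8 and 22.1 FPKM in CMP and 361.2 FPKM in HSC, Camp, a granule antimicrobial peptide, 284.6 and 79.8 FPKM in CMP and 767.1 FPKM in HSC, and Ngp 653.6 and 145.5 FPKM in CMP and 1829 FPKM in HSC. Mmp8, neutrophil collagenase, had 41.2 FPKM in library A, above the HSC mean of 23.2 FPKM, and 4.40 FPKM in library B, below it.

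Library A exceeded library B for all 11 recovered neutrophil genes, with medians of -0.66 and -3.10, so the median passed 2-fold in library B and not in A. The single higher gene was Cebpd, a factor of the C/EBP family, with 17.2 FPKM in CMP and 5.90 FPKM in HSC. The summed list was 3368 FPKM in CMP and 12180 FPKM in HSC, against 189300 FPKM in MEP. In the CMP mean, 8 of the 15 neutrophil genes were lower, while the primary granule genes Prtn3, Elane, Ctsg and Mpo were higher.

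**Figure D4:**
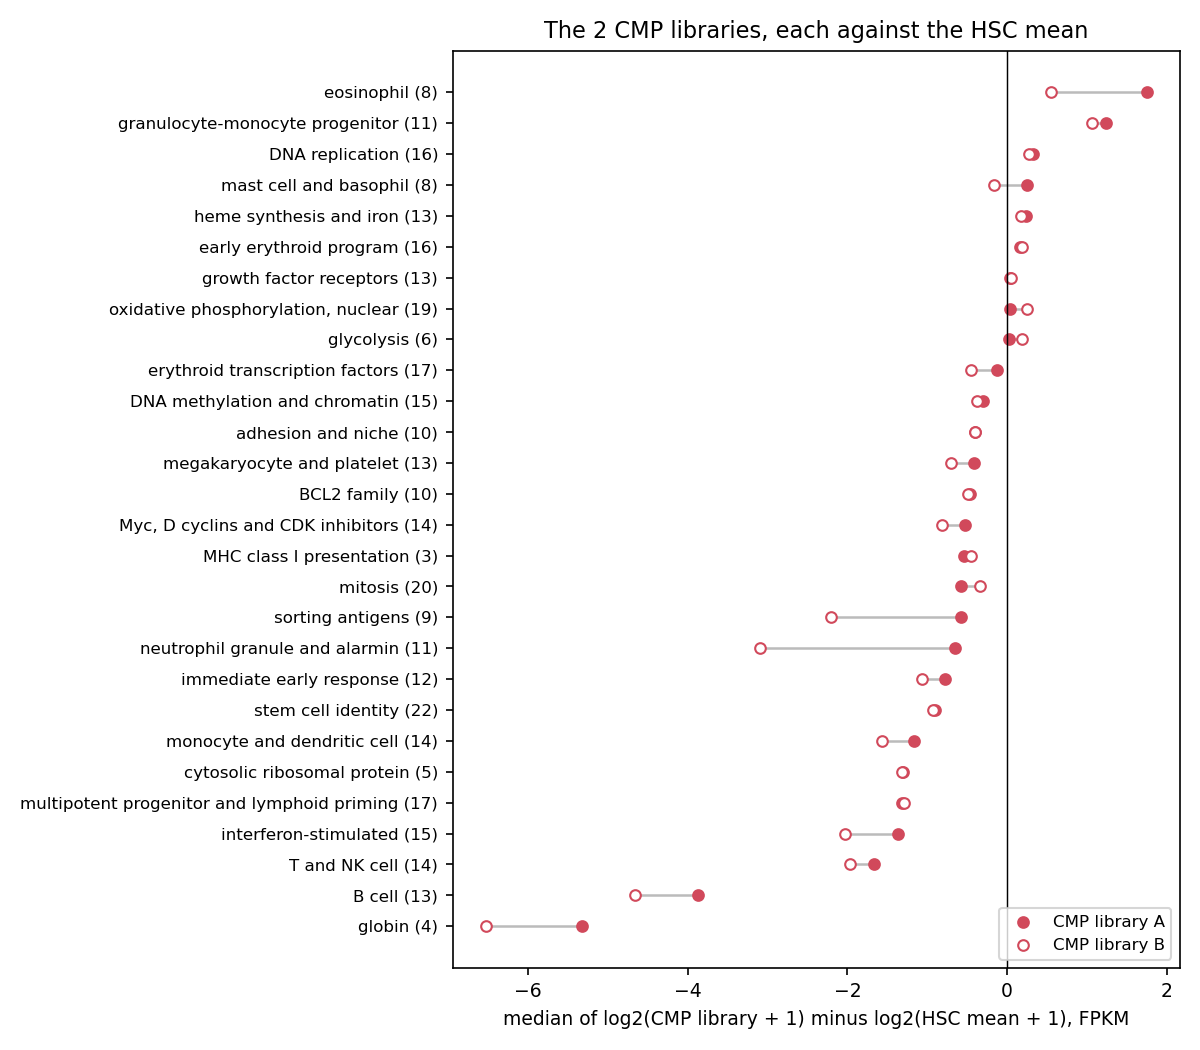
Median log2 difference of each gene list in CMP library A (filled) and library B (open), each against the HSC mean, over the members recovered in the libraries (number in brackets; lists with at least 3). The neutrophil medians of -0.66 in A and -3.10 in B lie far apart, and those of the stem cell and granulocyte-monocyte lists nearly coincide.

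MHC class II genes were lower, 4 of 7 with 0 higher and 0 split by number format. H2-Ab1, H2-Aa and H2-Eb1, the chains of the class II molecules, had 56.2, 39.3 and 36.8 FPKM in CMP, and 218.8, 151.1 and 201 FPKM in HSC. Of 9 MHC class I genes, 2 were lower and 0 higher, with 4 split by number format. Among all compared genes, 19.2% were lower. No class II gene was recovered in the CMP libraries, and over 3 class I genes the median was -0.54 in A and -0.46 in B.

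Interferon-stimulated genes were lower in CMP, 13 of 18 with 0 higher, a median of -1.37 and 5 split by number format. Ifit3, an antiviral effector, had 1.06 and 0.171 FPKM in the CMP libraries and 20.8 FPKM in HSC. Isg15, a ubiquitin-like modifier, had 9.58 and 3.35 FPKM in CMP and 29.6 FPKM in HSC. Both libraries lay below the HSC mean for these 2 genes, and the list medians were -1.36 in A and -2.03 in B.

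Immediate early genes were lower as well, 11 of 19 with 0 higher, a median of -1.23 and 5 split by number format. Nr4a1, a nuclear receptor induced by stimulation, had 20.02 FPKM in CMP and 238.2 FPKM in HSC. Egr1 had 64.8 and 40.8 FPKM in the CMP libraries and 169.1 FPKM in HSC, Fos 310.0 FPKM in CMP and 668.2 FPKM in HSC, and Jun 246.7 FPKM in CMP and 607.3 FPKM in HSC.

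Few replication or mitosis genes passed 2-fold, where 5.75% of all compared genes were higher and 19.2% lower. Of 24 replication genes, 2 were higher and 0 lower, with 1 split by number format and a median of 0.35. The higher genes were the licensing and initiation factors Cdt1 and Cdc45. Cdt1, the gene that split by number format, had 49.4 and 46.1 FPKM in the CMP libraries and 18.3 FPKM in HSC. Cdc45 had 47.8 FPKM in CMP and 18.8 FPKM in HSC. Of 24 mitosis genes, 0 were higher and 4 lower, with 0 split by number format and a median of -0.43.

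The 4 lower mitosis genes were Ube2c, Nusap1, Ccna2 and Cenpf, all between -1.04 and -1.09 on the log2 scale and none of them past 2-fold after quantile normalization or rescaling. Ccna2, cyclin A, had 24.7 and 26.2 FPKM in the CMP libraries and 53.7 FPKM in HSC. Mki67, which encodes the proliferation antigen Ki-67, had 80.9 FPKM in CMP and 121.8 FPKM in HSC.

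Among 18 measured genes of the Myc, D cyclin and CDK inhibitor list, 1 was higher and 6 lower, with 4 split by number format. Myc had 90.1 and 55.3 FPKM in the CMP libraries and 31.3 FPKM in HSC, over 2-fold in A and under it in B. Cdkn1c, which encodes the inhibitor p57 of quiescent stem cells, had 0.0670 and 0.0366 FPKM in CMP and 1.65 FPKM in HSC. Cdkn1a, encoding p21, had 18.2 FPKM in CMP and 44.5 FPKM in HSC. The D cyclins Ccnd1 and Ccnd2 were lower too, with 3.18 and 9.20 FPKM in CMP, and 8.85 and 24.7 FPKM in HSC.

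Glycolysis genes had 3 higher and 0 lower of 18, with 0 split by number format and a median of 0.50. Gapdh had 513.1 FPKM in CMP and 189.4 FPKM in HSC, Eno1 had 105.5 FPKM in CMP and 43.0 FPKM in HSC, and Aldoa 133.3 FPKM in CMP and 57.3 FPKM in HSC. All 25 nuclear genes of oxidative phosphorylation lay within 2-fold, with a median of 0.25. Gpx1, a glutathione peroxidase that removes hydrogen peroxide, had 646.3 FPKM in CMP and 38.3 FPKM in HSC. Among the protein-coding genes covered by the rule for the largest differences, it had the largest in the direction of CMP. Its columns split by number format, however, with 423.3 FPKM in MEP and 123.9 FPKM in CLP.

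Ribosomal protein genes had a median of -0.10, that of all genes, with 0 higher and 6 lower of 42, and 19 split by number format. The sign of this median changed after quantile normalization (0.25). Of the gene lists, that of the mitochondrial genome had the most genes set aside. Of its 13 genes, 5 were set aside, among them mt-Atp8 with 0.716 FPKM in CMP and 7136 FPKM in HSC. The gene mt-Co3, with 8.72 FPKM in CMP and 3294 FPKM in HSC, remained among those compared, though its columns also split by format. Of the 8 compared, 6 were lower and 4 split by number format. The 246 genes set aside, 123 of them processed pseudogenes, held 0.0809% of CMP FPKM and 15.2% of HSC FPKM.

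The remaining lists held few genes past 2-fold, where 5.75% of all compared genes were higher and 19.2% lower. Of 17 DNA methylation and chromatin genes, 1 was higher and 2 lower, with 2 split by number format. The higher one was Tet2, a methylcytosine dioxygenase, with 5.93 and 7.35 FPKM in the CMP libraries and 2.63 FPKM in HSC, and the lower ones were Hmga2, a chromatin protein of young stem cells, with 0.626 and 0.528 FPKM in CMP and 3.09 FPKM in HSC, and Satb1. Of 12 BCL2 family genes, 1 was higher and 3 lower, with 0 split by number format. Bid had 27.7 and 30.5 FPKM in CMP and 13.7 FPKM in HSC, and Bcl2l1, encoding the survival factor Bcl-xL, 3.05 and 2.49 FPKM in CMP and 7.29 FPKM in HSC. Of 15 adhesion genes, 1 was higher and 2 lower, with 2 split by number format; the homing receptor Cxcr4 had 103.7 and 88.1 FPKM in CMP and 165.3 FPKM in HSC, under 2-fold.

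The sorting antigens, apart from those of the gates above, repeated the pattern of the mature cell lists, with 1 higher and 7 lower of 11 and 0 split by number format. The myeloid antigen Itgam (CD11b) had 5.22 and 2.14 FPKM in the CMP libraries and 23.9 FPKM in HSC, and Ly6g 13.1 and 1.19 FPKM in CMP and 17.8 FPKM in HSC. The rule for the largest differences also named genes outside the lists. Tspoap1, Cldn15, Dmkn, Rab44 and Nrg2 were higher, with 23.6, 22.2, 12.3, 160.3 and 13.1 FPKM in CMP, and 1.27, 1.18, 0.334, 20.95 and 0.937 FPKM in HSC. Pou2af1, a B cell coactivator, Mzb1, a chaperone of plasma cells, S100a4, Pde2a, Cplx2 and Myl10 were lower, with 0.783, 0.834, 0.729, 0.0167, 0.338 and 0.269 FPKM in CMP, and 99.9, 75.5, 77.3, 45.9, 57.2 and 43.4 FPKM in HSC. Pou2af1, S100a4 and Pde2a split by number format.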

How the data were processed

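The authors deposited 1 table with an FPKM value per gene and group, averaged over its 2 samples. The genome build is mm10, per the submitters' processing notes. Which aligner and counter made the values is not given in the sources used here. Libraries were made with a TruSeq kit from total RNA, per the labels' protocols. Of 49588 lines, 2 without a gene name and 3 repeats were dropped, and 49324 of 49583 genes were matched by ID to GENCODE M21. The difference used a pseudocount of 1 FPKM. Genes with at least 5 FPKM in the control, HSC and CLP and at least 20 times the highest of the other 4 columns were set aside (B3gnt2, at 20.97 times, was the last inside; Rpl10-ps3, at 19.74 times, the first outside).

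CMP library values are whole fragment counts solved from the digits of the mean and the exon length; the recovered genes hold 45.53% of CMP FPKM. Tested on simulated data, 97.36% of 11225 genes were recovered with 0 wrong counts, and 4 of 2240 genes with a wrong length were accepted. HSC values have no recoverable libraries, and their depth is unknown. The named genes are the 15 largest differences in each direction among protein-coding genes with at least 10 FPKM (passing over mitochondrial, ribosomal protein and histone genes, antigen receptor segments and unnamed gene models), the extremes and defining members of 30 gene lists (541 genes, 3 of them not analysed here), and the gate genes. Members and lists were chosen with earlier results of these data known, so their directions are not independent support. Python 3.11.15, pandas 2.3.3 and numpy 2.4.6 were used.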

Additional observations from a re-analysis of the deposited data

How the results depend on the processing

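Against 772 genes higher and 2571 lower in CMP as reported, a pseudocount of 0.1 FPKM gave 1261 higher and one of 5 FPKM gave 267 higher and 1034 lower. Quantile normalization gave 1471 higher, protein-coding genes alone 511 higher and 1276 lower, and a filter of 5 FPKM 1447 lower. Leaving out the genes that split by number format, an alternative chosen after seeing the data, gave 1036 lower, and it removes genes higher in HSC by its own construction. Leaving out either CMP library gave 770 to 883 higher and 2507 to 2698 lower, while the HSC mean stayed as it was. Genes not recovered in the libraries kept their CMP mean in this setting and could not change. Among them were Prtn3, Elane, Ctsg, Mpo, Csf2ra, Gpx1, Dntt, Vpreb1 and all MHC class II genes, so their values were not checked by library. The other scalings, filters and set-aside rules kept both counts within 1.5 times. No gene named in the text and past 2-fold, and no list median past 2-fold, changed sign under the settings that gave it a value. With a pseudocount of 5 FPKM, 8 list medians came under 2-fold, with quantile normalization 3, and without library A or B the eosinophil median or those of the neutrophil and monocyte lists. Among the genes named, Il6st, Tet2, Bid, Ly6g, Ccnd1, Bcl11a, Klf3, Aqp9, Siglech and Cd200r3 came under 2-fold in library A alone, and Spi1, Nfe2, Myc, Procr, Ear1, Ear6, Ube2c, Nusap1 and Cenpf in library B alone. A pseudocount of 5 FPKM took 35 named genes under 2-fold in both directions, among them Klf1, Nfe2, Pf4, Gfi1 and Samd14, which were higher in CMP. Quantile normalization took 16 named genes under 2-fold and rescaling 11, all of them lower in CMP. No paired analysis was possible because the table holds 1 mean per group and the recovered CMP libraries carry no replicate number. Depth limits genes near 1 FPKM most, and the HSC error is unknown.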
